A study of Mus musculus with 4 samples.

Results

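Late-numbered miRNAs are taken here as the mouse miRNA entries whose number is 5000 or higher, and 203 of the 921 miRNA entries counted in the plasma libraries met this rule. The rule reads the name alone and no measured value, but it was chosen with earlier results of these data known. The numbers ran from 5100 to 9769, and the nearest entry below the limit was miR-3971. Of the 203 entries, 81 were 5p arms, 77 were 3p arms and 45 carried no arm in the name. By number, 32 lay in the 5000s, 66 in the 6000s, 89 in the 7000s and 16 at 8000 or above. The rest of the list comprised 153 mid-numbered entries, at 1000 or above but under the limit, and 565 low-numbered entries, below 1000.

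Small RNA was sequenced from the plasma of C57BL/6 mice with acute myocardial infarction (AMI, 2 libraries) and of Sham-operated mice (2 libraries). The methods describe male mice aged 8 weeks, a lasting tie of the left anterior descending artery (LAD) of the heart for AMI, and the same operation without that tie for Sham. Neither the time of plasma collection nor the number of mice behind each library is given, so the p-values measure the spread between these libraries, which may be technical. Where values of single libraries are given, replicate 1 of a group precedes replicate 2. Each molecule was tagged with a unique molecular identifier (UMI) before amplification, and UMIs count molecules while reads also count their PCR copies. At the number limit, miR-5100 just inside had 113 and 74 UMIs in AMI plasma, against 51 and 39 in Sham plasma, and miR-3971 just outside had 74 and 86 UMIs in AMI plasma, against 90 and 53 in Sham plasma.

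miRBase numbers mouse miRNAs in the order of their discovery, so the highest numbers belong to entries found last, mostly by deep sequencing. Canonical miRNAs are cut from a hairpin by Drosha in the nucleus and by Dicer in the cytoplasm, and either arm of the hairpin can load into Argonaute. A mirtron is a hairpin made by splicing in place of Drosha, so that its ends are the ends of a short intron and its 3p arm tends to carry the pyrimidine-rich tract and the terminal AG of the 3′ splice site. Bases 2 to 8 of the mature miRNA form the seed that pairs with target RNAs. For most late-numbered miRNAs no function is given here.

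The mature sequences below belong to some, not all, of the late-numbered miRNAs that differed between AMI and Sham plasma, with the seed in capitals. They come from RefSeq (GRCm38.p6), which held 172 of the 203 late-numbered entries. Of the miRNAs that differed, 5 had no match there, and others are left out. The first 9 were higher in AMI plasma and the last 4 were lower.
miR-7068-3p: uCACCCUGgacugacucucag
miR-8112: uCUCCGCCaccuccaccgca
miR-5121: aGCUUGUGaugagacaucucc
miR-7075-3p: cAACCAUGucuucuuucccag
miR-6412: uCGAAACCauccucagcuacua
miR-7084-3p: gCCUCUGAccccuguccucugc
miR-5627-3p: aCAGGGCUcuccggcgccccucgu
miR-8114: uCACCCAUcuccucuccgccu
miR-7648-5p: cCGCGUUCcgggcucggcgc
miR-7015-5p: uCUGUGCAguaggcuguggguuc
miR-7035-5p: gGCUGGGAgaguggcucagaa
miR-6353: uAGCAGCAcguauuuauccuauu
miR-7688-5p: uAGCUGGGcaugaucugaugagc

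No seed was shared among these 13 miRNAs. Over the 172 matched entries there were 168 distinct seeds, and 8 entries shared a seed with another late-numbered entry. CACCCUG stood in miR-7018-3p and miR-7068-3p, GGCUCAG in miR-5124b and miR-6413, GGGCUGG in miR-6940-5p and miR-7648-3p, and UGGGGGA in miR-6941-5p and miR-7024-5p. A seed of another listed miRNA was found in 9 of the 172.

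The next sequences show the splice-site bases of late-numbered miRNAs at intron ends, with the first GU or the last AG in capitals. Both arms of miR-7068 are given because its hairpin spanned an intron of 74 bases from end to end, in Cherp, which encodes a calcium homeostasis protein of the endoplasmic reticulum.
miR-7068-5p: GUgaggcucaguauggggugg
miR-7068-3p: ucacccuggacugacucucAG
miR-7075-3p: caaccaugucuucuuucccAG
miR-6967-3p: ucaucuuuaucucuccccAG

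Many late-numbered miRNAs lay at splice sites. With a tolerance of 5 bases, 80 of the 172 matched entries (46.5%) were placed from end to end of an intron or at its splice site. The share was 19 of 134 (14.2%) among mid-numbered and 9 of 477 (1.89%) among low-numbered entries. From end to end alone, as in a mirtron, it was 7 of 172 (4.07%), near the 6 of 134 (4.48%) of mid-numbered entries. Low-numbered entries had 2 of 477 (0.419%). At a splice site without spanning the intron there were 73 late-numbered (42.4%), 13 mid-numbered (9.7%) and 7 low-numbered entries (1.47%). Of the 172, 162 were placed by their hairpin and 10 by the mature sequence alone. Introns of any kind held 112 of the 172. A further 30 (17.4%) lay in an exon of a coding gene and 27 (15.7%) outside genes on their strand. The mature sequence was part of a protein-coding transcript in 29 entries (16.9%), against 13.4% of mid-numbered and 3.56% of low-numbered entries. These shares describe the annotation (GENCODE M21 transcripts on GRCm38) and were not tested.

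**Figure D1:**
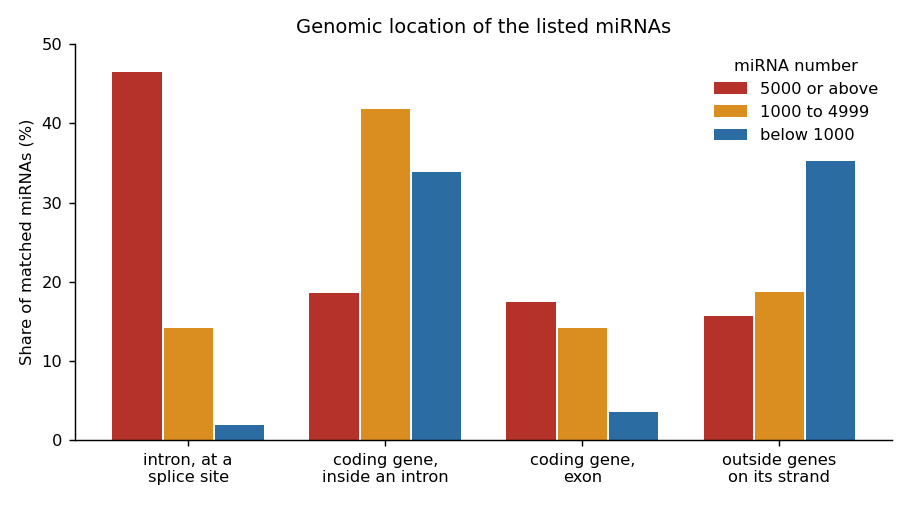
Share of RefSeq-matched miRNAs (%, vertical axis) in 4 kinds of genomic location, for late-numbered (5000 or above, red), mid-numbered (amber) and low-numbered miRNAs (below 1000, blue). The red bar is the tallest at splice sites of introns, end to end included, at 46.5%, against 14.2% and 1.89% in the other number ranges.

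The 3p arms at these sites carried the bases of a 3′ splice site. Of the 41 late-numbered 3p arms at splice sites, 35 (85.4%) ended in AG. These arms were chosen by their place at intron ends, so this share follows in part from the choice. Over all matched 3p arms the share was 40 of 64 (62.5%), against 20.4% of mid-numbered and 6.55% of low-numbered 3p arms. Late-numbered 3p arms had a median of 68.2% pyrimidines, whereas late-numbered 5p arms had 38.1%. A first GU, as in miR-7068-5p, was found in only 5 of the 69 matched 5p arms (7.25%). The share was 9.09% of mid-numbered and 3.18% of low-numbered 5p arms. Of the 38 late-numbered 5p arms at splice sites, 4 (10.5%) began with GU. These motifs were read on the strand of the miRNA and are descriptions, not evidence of how an entry is made.

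The late-numbered miRNAs were rare in plasma. Together they made up 0.0943% of the miRNA UMIs in AMI 1 (exact binomial 95% interval 0.0923 to 0.0964) and 0.0648% in AMI 2 (0.0634 to 0.0663). In Sham 1 they made up 0.0659% (0.0641 to 0.0678) and in Sham 2 0.0695% (0.0671 to 0.0719). AMI 1 was thus above both Sham libraries and AMI 2 just below both. The log2 difference of the share between AMI and Sham was 0.23, under the spread within groups (0.27), and without AMI 1 it was -0.06. The choice of denominator mattered here. Scaled with TMM factors (edgeR's correction of library totals for their composition), as for the fold changes given later, the summed level was 965 and 767 CPM in the AMI libraries, against 652 and 581 CPM (UMIs at a common library total) in the Sham libraries, so that both AMI libraries were above both Sham libraries and the log2 difference was 0.49. An exact permutation test of 2 against 2 libraries cannot go below a two-sided p of 0.333. Intervals cover counting error only.

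The median of the mean UMI count was 11.5 for late-numbered miRNAs and 90.1 for the other miRNAs. A mean of 100 UMIs or more was reached by 11 of the 203 (5.42%), against 344 of the 718 others (47.9%), and 86 of the 203 had a mean below 10. In CPM, which are miRNA UMIs scaled to a common library total with TMM factors, their mean levels ran from 0.293 to 88.4, with a median of 1.45. The member with the most UMIs, miR-8114, lies in the 5′ UTR of Glul (glutamine synthetase) at chr1:153899989-153900009 on the plus strand. It held 16.1% and 13.4% of the late-numbered UMIs in the AMI libraries, against 8.76% and 6.49% in the Sham libraries. The share of miR-7015-5p went the other way, with 0.793% and 0.568% in the AMI libraries, against 14.0% and 12.1% in the Sham libraries.

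Several other high members did not pass the threshold between AMI and Sham. miR-5113, in the 3′ UTR of Tnrc6b (an Argonaute partner in miRNA silencing), had 455 and 640 UMIs in the AMI libraries, against 407 and 140 in the Sham libraries. miR-5123, inside an intron of B4galt1 (a galactosyltransferase), had 27.0 ± 1.4 CPM in AMI and 24.6 ± 1.3 CPM in Sham (SD, n = 2 each), a log2 fold change of 0.14 that missed the threshold. miR-5126, whose mature sequence is made of G and C only, had 13.7 ± 5.7 CPM in AMI and 9.95 ± 2.06 CPM in Sham (SD, n = 2 each). The groups of miR-5113 and miR-5126 overlapped. miR-7222-5p had 86 and 96 UMIs in the AMI libraries, against 54 and 228 in the Sham libraries, so that Sham 2 alone stood high, and its log2 fold change was -1.22 with all libraries and 0.43 without Sham 2.

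Detection was incomplete and followed a pattern of library pairs. At least 1 UMI in all 4 libraries was found for 134 of the 203 late-numbered entries (66.0%), against 117 of 153 (76.5%) mid-numbered and 513 of 565 (90.8%) low-numbered entries. With a minimum of 10 UMIs the number was 61. Of the 69 late-numbered entries with a 0, 30 were at 0 in both AMI 1 and Sham 2, 37 were at 0 in both AMI 2 and Sham 1, and 2 were at 0 in another way. In these pairs of libraries the larger count of a late-numbered entry was never 1 to 9, whereas other pairings had 24 to 68 such entries. A 0 there may therefore stand for a count below a minimum of 10 UMIs per pair, a step that the sources do not state.

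Each entry at 0 in a pair thus kept 1 AMI and 1 Sham library with counts. Those at 0 in AMI 1 and Sham 2 had 2 to 23 UMIs in AMI 2 (median 10) and 1 to 17 in Sham 1 (median 10). Those at 0 in AMI 2 and Sham 1 had 2 to 20 UMIs in AMI 1 (median 11) and 1 to 15 in Sham 2 (median 5). The 2 entries outside the pattern were named after their values were seen. miR-5132-3p had 11 and 16 UMIs in the AMI libraries, against 2 and 0 in the Sham libraries. The ratio of UMIs over TMM-scaled library totals was 9.78, with an exact 95% counting interval of 2.46 to 84.8. That interval leaves out the spread between libraries. The edgeR test, which allows for this spread, did not call miR-5132-3p at an adjusted p under 0.05 (log2 fold change 3.18). miR-7240-5p had 16 and 12 UMIs in the AMI libraries, against 0 and 4 in the Sham libraries. At mean levels of 10 to 30 UMIs all 77 late-numbered entries were found in all 4 libraries, against 134 of 136 other miRNAs.

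**Figure D2:**
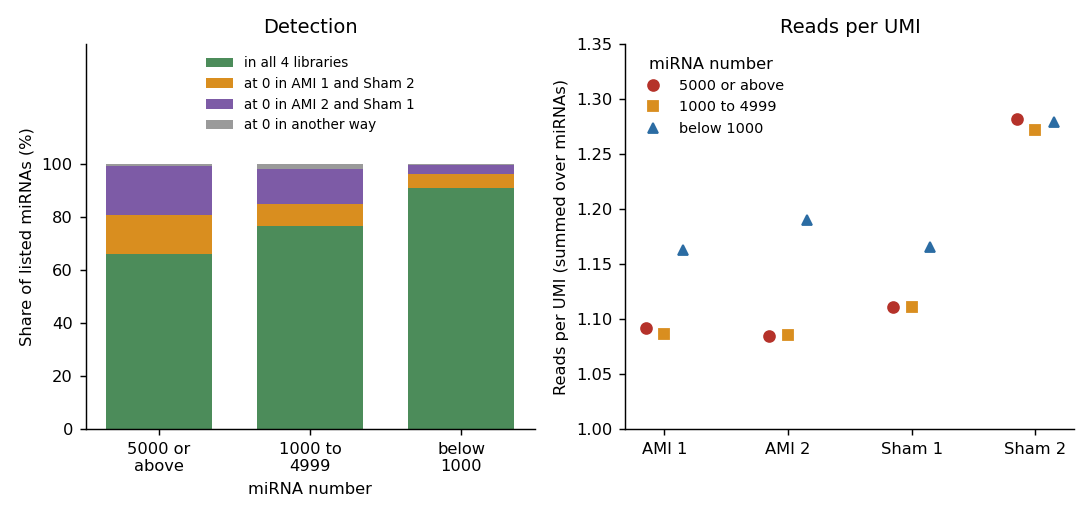
Left, share of listed miRNAs (%) by detection, for late-, mid- and low-numbered miRNAs; green marks entries with UMIs in all 4 libraries (66.0%, 76.5% and 90.8%). Right, reads per UMI summed over the miRNAs of each number range in each library, on an axis that starts at 1; late-numbered miRNAs lie beside mid-numbered ones in every library, and all ranges are highest in Sham 2.

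Reads per UMI were low and close to those of other miRNAs of similar level. Summed over late-numbered miRNAs there were 1.09 and 1.09 reads per UMI in the AMI libraries, against 1.11 and 1.28 in the Sham libraries. Low-numbered miRNAs had 1.16 and 1.19 in the AMI libraries, against 1.17 and 1.28 in the Sham libraries. The log2 ratio of late-numbered to all other miRNAs was -0.07 on average (SD 0.06 over 4 libraries). Against other miRNAs with a mean of 10 to 1000 UMIs the ratio was 0.0033 (SD 0.0070).

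Reads per UMI varied little between members. The 48 members with at least 100 UMIs over the 4 libraries, which held 75.7% of the late-numbered UMIs, ranged from 1.05 to 1.24 with a median of 1.12. The lowest were miR-5124b (1.05), miR-7068-5p (1.06), miR-7667-5p (1.06) and miR-7654-3p (1.08). The highest were miR-7222-5p (1.24), miR-7073-3p (1.22), miR-5100 (1.18) and miR-9769-3p (1.18). miR-7073-3p lies at a splice site of Cnot1, the scaffold of a deadenylase complex, and miR-5100 inside an intron of Mief2, a mitochondrial fission factor. In 42 of the 48 the highest value was that of Sham 2, the library with the fewest UMIs. The value of miR-7222-5p was 1.38 in Sham 2, against 1.07 in Sham 1, and 1.14 and 1.09 in the AMI libraries.

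Facts of the whole series bear on the comparison of AMI with Sham. miRNA UMIs numbered 8952264 and 11410698 in the AMI libraries, against 7449612 and 4831827 in the Sham libraries, so depth moved with the group. The 4 heart and muscle miRNAs and the 3 hepatocyte miRNAs of a marker list were all higher in AMI in the edgeR test, and the smallest adjusted p among 6 red blood cell and 2 platelet and myeloid miRNAs was 0.054. The summed level of the heart and muscle list was 86330 and 97278 CPM in AMI, against 11366 and 5817 CPM in Sham. The summed level of the hepatocyte list was 84833 and 120373 CPM in AMI, against 9006 and 21133 CPM in Sham. The log2 ratio of miR-451a, from red blood cells, to miR-23a-3p, a gauge of haemolysis, was 1.02 and 0.52 in AMI, against 3.02 and 1.56 in Sham. The part of these differences in the results on late-numbered miRNAs was not tested. In plasma, release from more cells and release of more RNA per cell cannot be told apart.

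Of the 203 late-numbered miRNAs, 134 passed the filter on low counts and were tested, and 24 of these differed between AMI and Sham in edgeR's quasi-likelihood test at an adjusted p under 0.05. In AMI plasma 19 were higher and 5 lower. The 134 tested were not the same 134 as those found in all 4 libraries, since 123 were in both sets. Of those tested, 10 were at 0 in a pair of libraries. Over all 772 miRNAs tested, 27.5% were called, 14.8% as higher and 12.7% as lower in AMI. The 19 rises (14.2% of 134) were thus near the background and the 5 falls (3.73%) below it. The median log2 fold change was 0.34 over the late-numbered miRNAs tested and 0.04 over all miRNAs tested. With library size alone these medians were 0.09 and -0.23, with 12 rises and 5 falls among late-numbered miRNAs and 86 rises and 147 falls among all, in place of 114 rises and 98 falls. Scaled by the 6 reference miRNAs of the study, the medians were 0.51 and 0.21. The paper judged these references stable from its own sequencing of AMI and Sham plasma, so this scaling may not be independent of these libraries.

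Leaving out a library changed these counts. Without AMI 1 the number called fell to 6 of the 24, among them the rises of miR-7068-3p, miR-6378 and miR-8112 and the falls of miR-7015-5p and miR-7035-5p. Without AMI 2 there were 15 calls, 14 of them shared with the full set. Without Sham 1 there were 33 calls and without Sham 2 there were 23, which shared 21 and 20 with the full set. No call changed sign. Both AMI libraries lay above both Sham libraries for 57 of the 134 late-numbered miRNAs tested and below for 21. Over all miRNAs tested, both AMI libraries were above in 35.0% and below in 30.4%.

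**Figure D3:**
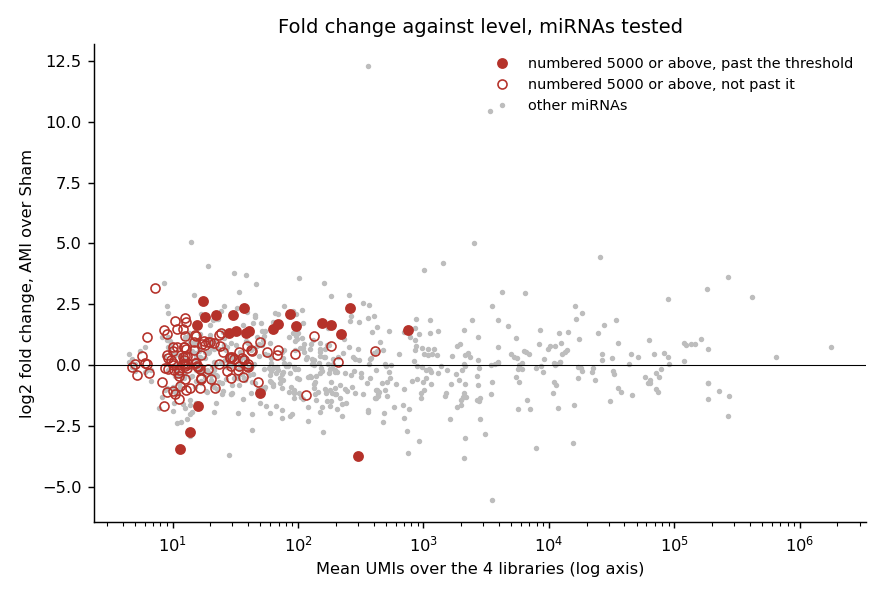
log2 fold change of AMI over Sham (vertical axis) against the mean UMI count over 4 libraries (horizontal log axis) for the 772 miRNAs tested; filled red circles are the 24 late-numbered miRNAs past the threshold, open red circles the other late-numbered miRNAs and grey points the other miRNAs. Late-numbered miRNAs sit at the low end of the level axis, and 19 of the 24 filled circles lie above 0.

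The calls were also counted by level. At a mean of 10 to 30 UMIs 10.7% of late-numbered miRNAs were called, against 16.5% of other miRNAs of that level. The share was 34.5% at 30 to 100 UMIs, against 32.8% of the others. At 100 to 1000 UMIs 6 of 11 late-numbered miRNAs were called (54.5%), against 39.5% of the others, and the median log2 fold changes were 1.19 and -0.25. All 24 calls had a mean of 10 UMIs or more.

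The most abundant late-numbered rise was that of miR-8114. It had 1361 and 994 UMIs in the AMI libraries, against 430 and 218 in the Sham libraries, or 129 ± 37 CPM in AMI and 47.4 ± 13.7 CPM in Sham (SD, n = 2 each), and its log2 fold change was 1.45 ± 0.41 (SE; edgeR adjusted p = 0.021). Both AMI libraries stood above both Sham libraries. Without AMI 1 the value was 1.14 (adjusted p = 0.26) and without AMI 2 it was 1.71 (adjusted p = 0.062), so the call was lost without either AMI library.

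miR-6378 was next in level among the rises. It had 50.4 and 47.5 CPM in the AMI libraries, against 14.5 and 4.67 CPM in the Sham libraries, and its log2 fold change was 2.34 ± 0.49 (SE; edgeR adjusted p = 0.0049). The Sham libraries differed more from each other than the AMI libraries did. The call held without any single library, with a log2 fold change of 1.73 without Sham 2 and 3.38 without Sham 1.

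miR-8112, in the 5′ UTR of Krcc1 (chr6:71271745-71271764, plus strand), had 17.7 and 14.4 CPM in the AMI libraries, against 3.85 and 3.63 CPM in the Sham libraries. Its log2 fold change was 2.10 ± 0.38 (SE; edgeR adjusted p = 0.0030). It ran from 1.96 to 2.24 over the left-out libraries. miR-7068-3p had 55 and 76 UMIs in the AMI libraries, against 8 and 10 UMIs in the Sham libraries, with a log2 fold change of 2.36 ± 0.43 (SE; edgeR adjusted p = 0.0030). Its mature sequence lies at chr8:72470016-72470036 on the minus strand. For both miRNAs the groups were far apart and the call held without any single library, and the log2 fold change of miR-7068-3p was then 2.02 to 2.69.

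The largest fold change among the rises, that of miR-7224-3p, rested on few molecules. It had 28 and 35 UMIs in the AMI libraries, against 2 and 5 UMIs in the Sham libraries. The log2 fold change was 2.64 ± 0.59 (SE; edgeR adjusted p = 0.0073), and the ratio of UMIs over TMM-scaled library totals was 6.52 with an exact 95% counting interval of 2.98 to 16.9. It was not called without AMI 1 (2.73, adjusted p = 0.056) or without AMI 2 (2.51, adjusted p = 0.23). Without Sham 1 the value was 1.96 and without Sham 2 it was 3.59.

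miR-6395 and miR-6412 rose to similar levels. miR-6395 had 31.5 and 23.9 CPM in the AMI libraries, against 8.63 and 8.13 CPM in the Sham libraries, a log2 fold change of 1.72. miR-6412, outside genes on chromosome 10, had 33.6 and 30.8 CPM in the AMI libraries, against 12.2 and 8.13 CPM in the Sham libraries, a log2 fold change of 1.65. Neither overlapped between the groups, and without AMI 1 both missed the threshold narrowly (edgeR adjusted p = 0.065 and 0.052, log2 fold changes 1.53 and 1.62).

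The other rises among the 12 largest were smaller in count or less even. miR-5121 had 64 and 39 UMIs in the AMI libraries, against 8 and 10 in the Sham libraries. It lies in an intron of Rpl13a, a ribosomal protein gene, at chr7:45126925-45126945 on the minus strand, and was placed at a splice site. It is also inside Snord33, a small nucleolar RNA that guides methylation of ribosomal RNA. Reads of the miRNA and of the snoRNA may therefore not be told apart. miR-7075-3p, at a splice site of Terf2 (a telomere-binding protein), had 30 and 31 UMIs in the AMI libraries, against 5 and 6 in the Sham libraries. miR-7211-3p had 15.2 and 9.54 CPM in the AMI libraries, against 5.44 and 2.08 CPM in the Sham libraries. The groups of these 3 miRNAs did not overlap, and none was called without AMI 1. The log2 fold change was 1.57 for miR-5121 without AMI 1. For miR-7211-3p it was 1.34 without AMI 1, 2.56 without Sham 1 and 1.15 without Sham 2. miR-7075-3p was also lost without AMI 2, and its log2 fold change ran from 1.66 to 2.27 over the left-out libraries.

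miR-6407 had 54 and 21 UMIs in the AMI libraries, against 4 and 9 in the Sham libraries. Its log2 fold change of 2.04 was 1.11 without AMI 1, where the call was lost, 1.40 without Sham 1 and 2.90 without Sham 2. miR-7084-3p, which lies at a splice site of Elof1 (a transcription elongation factor) and in the 5′ UTR of another of its transcripts, had 29 and 22 UMIs in the AMI libraries, against 8 and 4 in the Sham libraries. Its log2 fold change was 1.63, and the call was lost without AMI 1 (1.37), AMI 2 (1.88) or Sham 2 (1.35). With all 4 libraries, miR-6407 was not called by DESeq2 (adjusted p = 0.060) or on read counts in edgeR (adjusted p = 0.066). miR-7084-3p was not called by DESeq2 (adjusted p = 0.071), nor in edgeR on read counts (adjusted p = 0.064) or with library size alone (adjusted p = 0.11). For both the AMI counts stood above the Sham counts.

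The remaining 7 rises, with log2 fold changes of 1.26 to 1.50, were those of miR-8114, miR-7667-5p, miR-7654-3p, miR-7648-5p, miR-6988-3p, miR-7672-5p and miR-7052-3p, the last 3 of which were named after their values were seen. miR-7648-5p, in the 5′ UTR of Alg10b (a glucosyltransferase of protein glycosylation), had 44.6 and 30.5 CPM in the AMI libraries, against 12.6 and 18.8 CPM in the Sham libraries. miR-7654-3p, in the coding part of Arglu1, had 73 and 45 UMIs in the AMI libraries, against 20 and 15 in the Sham libraries. All 7 had both AMI libraries above both Sham libraries, and all 7 lost the call without AMI 1, where the log2 fold changes of miR-7648-5p and miR-7654-3p were 0.98 and 0.85. Without AMI 2 only miR-6988-3p and miR-7654-3p of the 7 were called, and without Sham 2 miR-7667-5p and miR-7672-5p were lost. With all 4 libraries but library size alone as the scaling, 6 of the 7 were not called, the exception being miR-8114, and in DESeq2 miR-7654-3p and miR-7052-3p were not called.

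**Figure D4:**
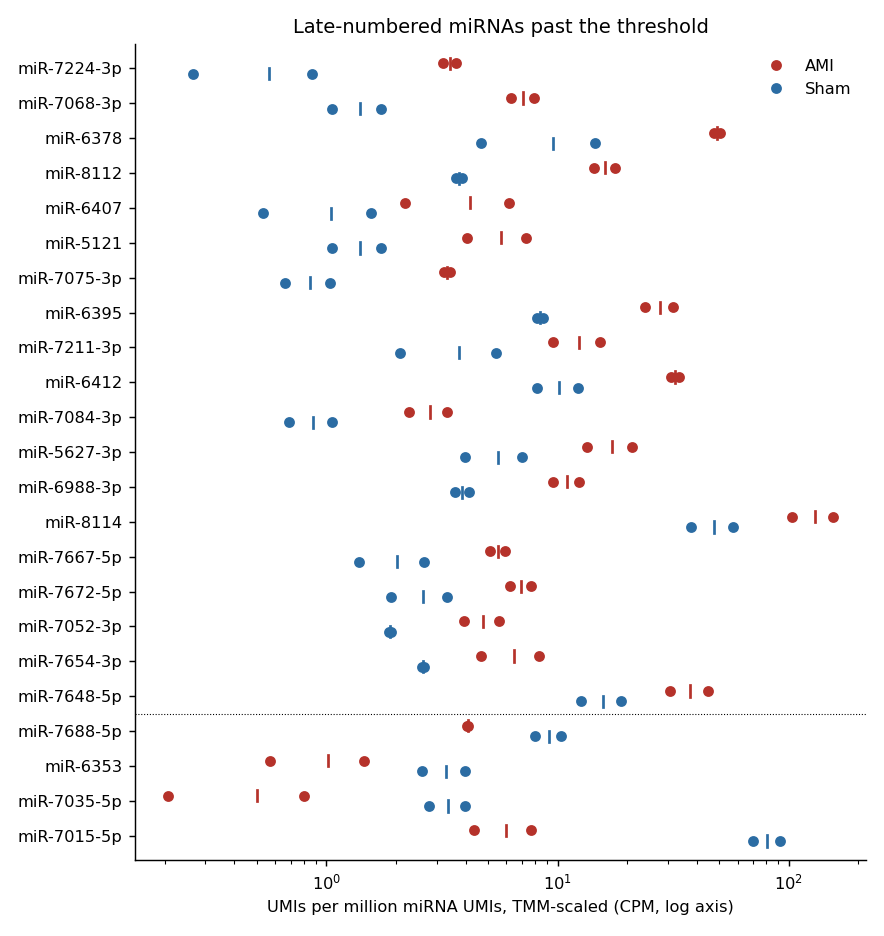
Level of 23 of the 24 late-numbered miRNAs past the threshold in each library, in TMM-scaled CPM on a log axis, with AMI in red and Sham in blue; each point is a library, the tick is the group mean, and the dotted line parts the 19 rises (above) from 4 of the 5 falls. The points of the groups do not overlap in any row, and miR-7015-5p at the bottom has the widest gap.

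miR-7015-5p had the largest fall and the smallest adjusted p of all late-numbered miRNAs. It had 67 and 42 UMIs in the AMI libraries, against 688 and 406 in the Sham libraries. Its level was 6.01 ± 2.33 CPM in AMI and 80.8 ± 14.9 CPM in Sham (SD, n = 2 each). The log2 fold change was -3.75 ± 0.44 (SE; edgeR adjusted p = 2.0e-04). Without any single library it stayed called, at -4.18 to -3.40. The sequence lies in an intron of Smap2, which encodes a GTPase-activating protein for Arf, at chr4:120973295-120973317 on the minus strand. Its other arm, miR-7015-3p, had 0 and 10 UMIs in the AMI libraries, against 7 and 0 in the Sham libraries, which is the pair pattern, and was not tested.

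The falls of miR-7035-5p and miR-7688-5p were at low counts in both groups. miR-7035-5p, at a splice site of Rasa4 (a GTPase-activating protein for Ras), had 7 and 2 UMIs in the AMI libraries, against 30 and 16 in the Sham libraries. Its log2 fold change of -2.74 was lost without AMI 2 (-2.06) and without Sham 1 (-2.44), and it was -3.91 without AMI 1. miR-7688-5p, outside genes on chromosome 10, had 36 and 39 UMIs in the AMI libraries, against 78 and 46 in the Sham libraries. Its log2 fold change of -1.17 was not called without AMI 1, AMI 2 or Sham 1, and it ran from -1.37 to -0.96 over the left-out libraries. Nor was it called with all 4 libraries when scaled by the 6 reference miRNAs (-0.99, edgeR adjusted p = 0.082). Both had the AMI libraries below the Sham libraries.

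A further fall, that of miR-6353, needs its sequence beside that of miR-16-5p, the miRNA with the most UMIs of those that share its seed. The first 12 bases, in capitals, were the same in both.
miR-6353: UAGCAGCACGUAuuuauccuauu
miR-16-5p: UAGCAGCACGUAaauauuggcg

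miR-6353 had 5 and 14 UMIs in the AMI libraries, against 30 and 15 in the Sham libraries. Its level was 1.01 ± 0.62 CPM in AMI and 3.29 ± 0.98 CPM in Sham (SD, n = 2 each), a log2 fold change of -1.68 ± 0.54 (SE; edgeR adjusted p = 0.038). The call was lost without AMI 1 (-1.16) and without Sham 1 (-1.34), and the value was -2.50 without AMI 2. It was also lost when scaled by the 6 reference miRNAs (-1.52, edgeR adjusted p = 0.064). For each UMI of miR-6353 there were 409783 and 206682 UMIs of miR-16-5p in the AMI libraries, against 51799 and 43522 in the Sham libraries. Whether some of its few UMIs are misread miR-16-5p was not tested. It lies inside a long intron of Pid1 (chr1:84218926-84218948, minus strand).

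The arms were compared next. Of 48 late-numbered 3p arms tested, 9 were higher (18.8%) and 1 lower (2.08%) in AMI, with a median log2 fold change of 0.65. Among 287 3p arms of all other miRNAs 16.4% were higher and 10.8% lower, with a median of 0.05, so the share of rises was near theirs. Of 51 late-numbered 5p arms, 3 were higher and 3 lower (5.88% each), with a median of 0.07. Among 280 5p arms of all other miRNAs 11.4% were higher and 19.3% lower, with a median of -0.16. The difference between the arms was not tested. The 35 tested entries with no arm in the name had 7 rises (20%), 1 fall and a median of 0.43.

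Both arms were listed for 23 late-numbered hairpins, which compares RNAs from the same precursor within a library. In 8 of them the 5p arm had more UMIs in all 4 libraries, and in 3 the 3p arm had more. The 3p share of UMIs put both AMI libraries above both Sham libraries for 11 hairpins, below for 1 and overlapping for 10, with 1 hairpin at 0 in both arms of a library. Of the overlapping hairpins, miR-5615, miR-6921, miR-6956, miR-7015, miR-7042 and miR-7091 had an arm at 0 in the pair pattern. They were listed after their values were seen. Their 3p share was equal in an AMI and a Sham library, so the zeros fixed the overlap. Among 211 other hairpins the 3p share was higher in AMI for 64, lower for 53 and overlapping for 93. For miR-7068 it was 55% and 74.5% in the AMI libraries, against 24.2% and 35.7% in the Sham libraries. In that hairpin the 5p arm did not pass the threshold, with 45 and 26 UMIs in the AMI libraries, against 25 and 18 in the Sham libraries.

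The same direction was seen in miR-5627 and miR-7084. These and miR-7068 were named because their 3p arms were among the largest rises, so this direction follows in part from the choice. For miR-5627, outside genes on chromosome 12 and the hairpin with most UMIs but for miR-7015, the 3p share was 38.5% and 37.4% in the AMI libraries, against 26.6% and 23.2% in the Sham libraries. Its 3p arm had 184 and 129 UMIs in the AMI libraries, against 53 and 23 in the Sham libraries, and was called with a log2 fold change of 1.62 (1.29 and not called without AMI 1), whereas its 5p arm had a log2 fold change of 0.78 and was not called. For miR-7084 the 3p share was 70.7% and 51.2% in the AMI libraries, against 28.6% and 21.1% in the Sham libraries. miR-6967, at a splice site in the kinesin genes Kifc1 and Kifc5b, had 3p shares of 84.9% and 83.5% in the AMI libraries, against 77.1% and 69.6% in the Sham libraries, and neither arm was called. The exception was miR-7648, with 4.41% and 1.67% in the AMI libraries, against 9.52% and 6.03% in the Sham libraries.

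**Figure D5:**
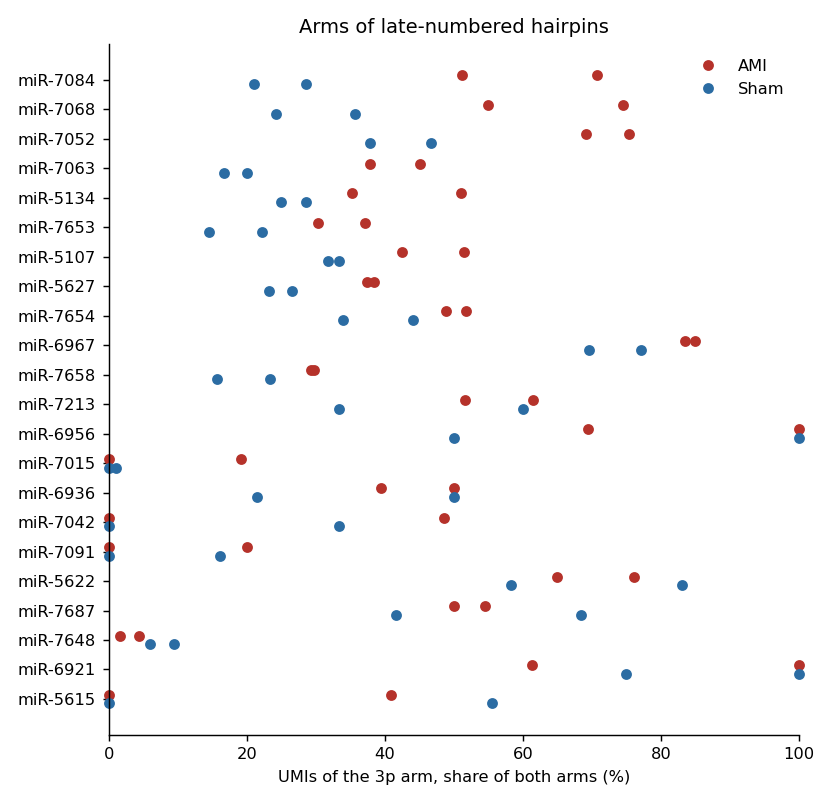
Share of UMIs in the 3p arm of 22 late-numbered hairpins (%, horizontal axis), with AMI in red and Sham in blue and each point a library; hairpins are ordered by the difference of the group means. In 11 hairpins both AMI points lie to the right of both Sham points, and in miR-7648 they lie to the left.

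By location, calls were found in all classes but the 3 tested entries in exons of non-coding genes. Over all miRNAs tested 14.8% were called higher and 12.7% lower in AMI. The 48 tested entries at splice sites had 6 rises (12.5%) and 2 falls (4.17%), with a median log2 fold change of 0.29. Within them 24 3p arms had 5 rises (20.8%), 1 fall and a median of 0.78, and 23 5p arms had no rise, 1 fall and a median of 0.04. The other rise at splice sites was that of miR-5121, which lies inside Snord33. Entries in exons of coding genes had 5 rises (20%) and no fall among 25 tested, with a median of 0.75. Those placed inside introns away from splice sites had 1 rise (4.35%) and 2 falls (8.7%) among 23. The fall of miR-7015-5p was counted there, although its other arm, miR-7015-3p, was placed at a splice site. Entries outside genes had 2 rises (11.8%) and 1 fall (5.88%) among 17. The 18 tested entries without a RefSeq match had 5 rises (27.8%), which were those of miR-7224-3p, miR-6378, miR-6407, miR-6395 and miR-7211-3p. By number, the tested entries of the 5000s had 2 rises and no fall among 25, those of the 6000s 5 and 2 among 38, those of the 7000s 10 and 3 among 57, and those at 8000 or above 2 and 0 among 14. The share of rises was 8.0%, 13.2%, 17.5% and 14.3% over these ranges, from low to high number.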

How the data were processed

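The authors deposited raw UMI counts and read counts per miRNA and piRNA entry of 4 plasma libraries, with no normalization. Their processing notes name bcl2fastq 2.18.0.12 and mm10, with no aligner or miRNA annotation stated. An empty row was dropped. UMI counts of the 921 miRNA entries were tested with edgeR 4.0.16 in R 4.3.3 (quasi-likelihood test, two-sided and robust, after TMM scaling and filterByExpr on the groups). P-values were adjusted by Benjamini-Hochberg over 772 miRNAs and called below 0.05. Scaling factors were 0.978 and 0.845 in AMI and 1.01 and 1.20 in Sham. Intervals are exact at 95%. Sequences and hairpin places came from RefSeq (GRCm38.p6), and introns and exons from GENCODE M21 on the same build.

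The members, lists and tests were chosen with earlier results of these data known. Named miRNAs were the 12 largest called rises, the called falls, the 12 highest levels, their other arms, the 4 highest and 4 lowest in reads per UMI among those with at least 100 UMIs, and any said to be chosen later. Of the called falls, 1 is counted but not reported here. The test was checked on simulated counts, where 4-fold changes were called in 56 of 64 miRNAs and 2-fold changes in 18 of 60. Among the late-numbered ones these were 6 of 7 and 1 of 5. All simulated miRNAs were given the same spread, and the pair pattern of zeros was not simulated.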

Additional observations from a re-analysis of the deposited data

How the results depend on the processing

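With 2 libraries a group, leaving out each library moved the late-numbered calls most, with 6 to 33 called in place of 24, and the calls among all miRNAs to 79 to 305 in place of 212. In those runs the lone library of a group was assumed to vary like the others. The log2 difference of the share of UMIs ran from -0.062 to 0.48 over the left-out libraries and was 0.49 with UMIs scaled with TMM, past the spread of the unscaled share within groups (0.27). A minimum of 10 UMIs in every library left 61 late-numbered miRNAs to test and 14 calls, all among the 24, and a minimum of 10 UMIs left 61 entries found in all libraries. The log2 ratio of reads per UMI to other miRNAs was -0.0011 as a median over entries with at least 20 UMIs. DESeq2 1.42.0 called 21, RLE scaling 26, the 6 references 25, library size alone 17, read counts 25, no filter 27 and miRNAs with piRNAs 28. Over the miRNAs named by the rule, 472 values kept their side of the threshold, 46 lost it, 11 gained it and 0 reversed a call.

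The labels share only replicate numbers between the groups. With the replicate number as a block 17 late-numbered miRNAs and 172 in all were called (not miR-6407, miR-7084-3p, miR-7052-3p, miR-7654-3p, miR-7648-5p, miR-6353 or miR-7688-5p), and the deviations of same-numbered libraries had a correlation of -0.37 over 772 miRNAs and 0.01 without entries at 0 in a pair. A crossed block, chosen after seeing the data, called 30 and 249. Leaving out entries at 0 in a pair, also chosen then, called 32 and 256, and the log2 difference of the share without such members was 0.26. Low counts also limit the comparison, since 86 members had a mean below 10 UMIs.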
